A study of Mus musculus with 15 samples.

Results

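The 8 genes described here encode the mouse propionate pathway and the handling of its cofactor: Pcca, Pccb, Mcee, Mut, Mmaa, Mmab, Mmachc and Mmadhc. They were named by symbol and matched to 1 Ensembl gene ID each among the 37620 IDs of the files, and all 8 passed the filter on low counts that left 16001 genes for testing. The members were chosen by symbol, with no threshold on a measured value, but with expression results of these 15 libraries in view, so their values and fits are given as a description. RNA came from pulmonary metastases of B16-F10.1, a pigmented C57BL/6 mouse melanoma line, grown in male C57BL/6J hosts that were 8 weeks old at the tail-vein injection of 100000 cells. After 21 days the hosts were fed a test diet for 2 weeks, a schedule stated for the first 3 of the 4 diets: methionine deficient at 0% (3 libraries), methionine restricted at 25% of normal (3), methionine adequate (3) or methionine supplemented at 300% (6), which is known from the sample labels alone. All hosts carried the same tumour line, and no group went without a tumour. Separate mice are not stated for the libraries, so a p-value here reflects only how these 15 samples vary.

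Propionyl-CoA is the product left when the carbon skeletons of methionine, threonine, valine and isoleucine and of odd-chain fatty acids are broken down. In mitochondria, propionyl-CoA carboxylase, which carries biotin, adds a carboxyl group, an epimerase turns the methylmalonyl-CoA made to its other mirror form, and methylmalonyl-CoA mutase rearranges that into succinyl-CoA for the tricarboxylic acid cycle. The mutase needs adenosylcobalamin, a form of vitamin B12, so the pathway shares its vitamin with methionine synthase, which needs methylcobalamin and remakes methionine in the cytosol. Loss of function in the human counterparts of these genes causes propionic or methylmalonic acidemia, for some of them together with homocystinuria.

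Promoter windows for 6 of the 8 genes were read from RefSeq on build GRCm38.p6, each from 250 bases before to 50 bases after a transcription start; the deposited values were made on another build, NCBIM37. Mut and Mmadhc are named only. The 3 windows below were picked after the expression values were seen. The Pccb window was picked because its counts after TMM scaling set the adequate diet apart from the other 3. The Mmachc window was picked because its known regulators were measured, and the Mmab window because it overlaps that of the neighbour Mvk. They lie on the minus strand at chr9:101034835-101035134 for Pccb, chr4:116708336-116708635 for Mmachc and chr5:114443978-114444277 for Mmab, and are written 5′ to 3′ with matches to the motifs named next in capitals.
Pccb promoter: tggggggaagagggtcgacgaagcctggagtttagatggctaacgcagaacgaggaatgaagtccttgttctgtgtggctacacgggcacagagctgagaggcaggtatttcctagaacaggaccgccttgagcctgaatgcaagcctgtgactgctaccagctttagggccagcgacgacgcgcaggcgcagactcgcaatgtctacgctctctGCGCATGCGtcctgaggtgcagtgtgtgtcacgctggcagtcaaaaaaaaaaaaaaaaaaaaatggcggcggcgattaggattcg
Mmachc promoter: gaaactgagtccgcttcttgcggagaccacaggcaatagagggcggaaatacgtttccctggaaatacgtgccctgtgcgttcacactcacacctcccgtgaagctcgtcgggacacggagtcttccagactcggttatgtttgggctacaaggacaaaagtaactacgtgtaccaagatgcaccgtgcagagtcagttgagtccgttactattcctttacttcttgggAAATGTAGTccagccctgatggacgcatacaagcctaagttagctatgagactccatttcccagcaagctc
Mmab promoter: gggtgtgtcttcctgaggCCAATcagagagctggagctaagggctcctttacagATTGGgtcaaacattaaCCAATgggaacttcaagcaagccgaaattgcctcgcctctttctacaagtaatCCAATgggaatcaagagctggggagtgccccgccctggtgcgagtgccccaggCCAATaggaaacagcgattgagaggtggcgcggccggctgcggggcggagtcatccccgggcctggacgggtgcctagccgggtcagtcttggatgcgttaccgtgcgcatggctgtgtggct

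The capitals in the Pccb window are GCGCATGCG, the core bound by nuclear respiratory factor 1, beginning 35 bases before the start. It was found in 1.75% of the 32851 windows of the table. The capitals in the Mmachc window match ACTACANNT on the opposite strand, the first letters of the element of THAP11 and ZNF143, beginning 21 bases before the start; 4.16% of windows held it. In human cells these factors, with their partner HCFC1, are known to drive MMACHC. The Mmab window held 5 CCAAT boxes on either strand, a sequence bound by NF-Y that occurred in 37.4% of windows. Mmab and the mevalonate kinase gene Mvk run in opposite directions with starts 242 bases apart, and 259 bases at chr5:114444019-114444277 lie in both windows. Neither TCACNCCAC, a sterol element, nor TGATGNAA, an ATF4 element, matched any window of the 6 genes; 1.24% and 3.97% of all windows held them. Both strands were searched, the motifs were chosen after these sequences were seen, and a match is a description of the letters.

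Total expected counts ran from 13107700 to 29994300 per library. Melanocyte markers, 8 genes that include Tyr and Pmel, summed to between 14390 and 28307 CPM (counts per 1000000, after TMM scaling of library sizes) and were present in all 15 libraries. Lung was present too: the 8 alveolar type 2 markers summed to 195 to 6128 CPM in deficient, 75.7 to 578 CPM in restricted, 223 to 952 CPM in adequate and 46.0 to 1695 CPM in supplemented libraries. In bulk tissue, fewer cells of a type and less RNA per cell cannot be told apart. 3 libraries stood apart. The 10 most abundant genes took 46.5% of counts in adequate replicate 1 and 18.2% to 31.7% in the other 14, and it received a TMM factor of 0.69 beside 0.94 to 1.16 for those 14. Supplemented replicate 5 held 1415 CPM of 6 skeletal muscle markers, where the other 14 held 1.37 to 9.40 CPM. Deficient replicate 3 had the alveolar total of 6128 CPM.

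For 7 of the 8 genes the libraries overlapped in each pair of diets compared, and Pccb was the exception (the plot of CPM by diet). By edgeR's quasi-likelihood test with Benjamini-Hochberg adjustment over all 16001 genes, 0 of the 8 passed an adjusted p of 0.05 for any difference among the diets, where 0.00625% of all genes (1 gene) passed. At an unadjusted p under 0.05 the count was 1 of 8, Pccb, against 9.47% of all genes. DESeq2 called 1 of 8, again Pccb, where it called 1.61% of all genes, and limma-voom called 0 of 8 and 0% of all genes. The same gene was the only one of the 8 with an unadjusted p under 0.05 in deficient, restricted and supplemented metastases against adequate ones, where 5.84%, 4.31% and 4.92% of all genes had such a p and a lower level. Neither deficient against restricted nor deficient against supplemented libraries gave such a p for any of the 8, beside 7.44% and 5.45% of all genes.

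**Figure D1:**
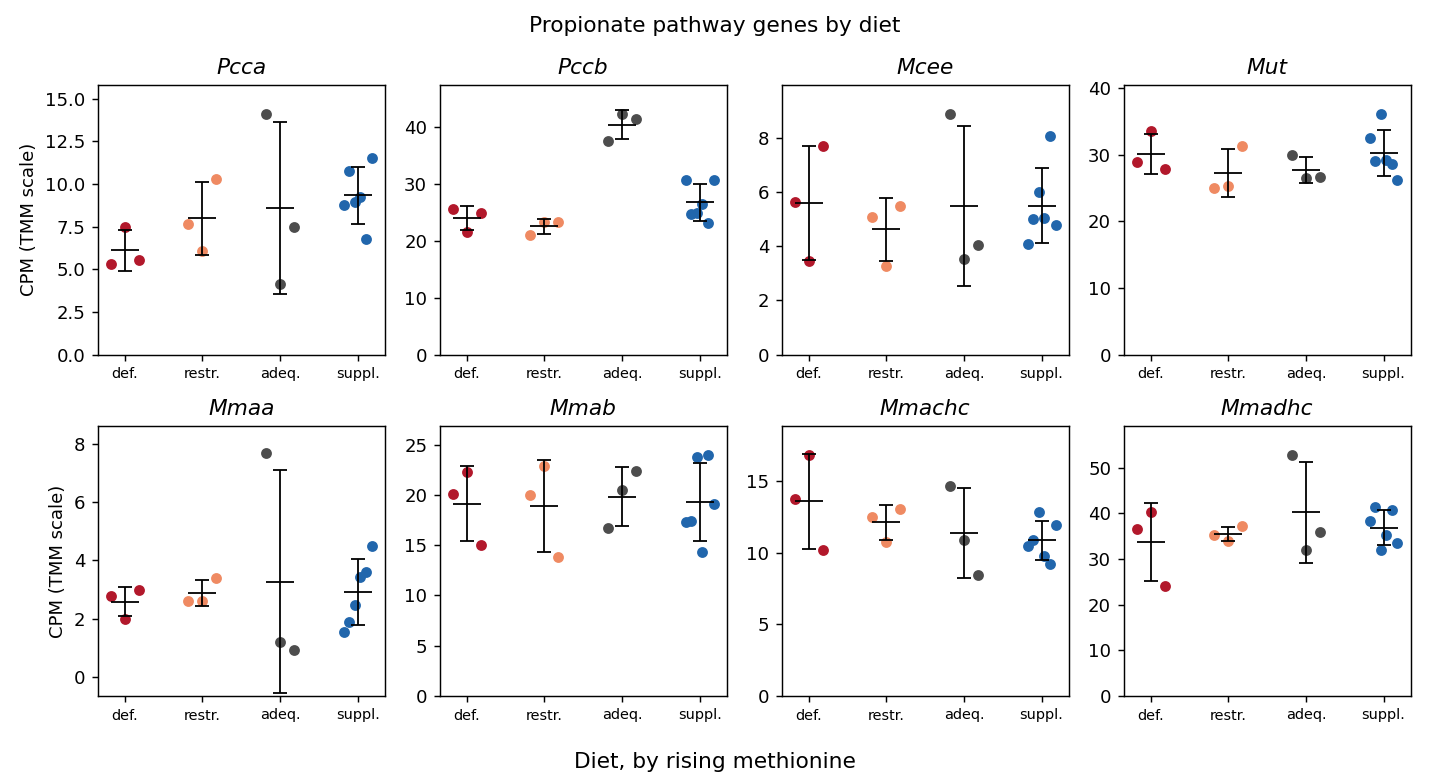
CPM on the TMM scale (y axis) of the 8 genes in each of the 15 libraries, by diet in order of rising methionine (def., deficient; restr., restricted; adeq., adequate; suppl., supplemented); long ticks and bars are means ± SD (n = 3, 3, 3 and 6). Pccb lies at or under 30.6 CPM in the 12 libraries of the other diets, against 37.5 to 42.2 CPM in the adequate ones, while for the remaining 7 genes the diets overlap.

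Pccb (ENSMUSG00000032527, chromosome 9) encodes the beta subunit of propionyl-CoA carboxylase, which transfers the carboxyl group to propionyl-CoA. It stood at 25.6, 21.6 and 24.8 CPM in the deficient libraries and at 20.9, 23.3 and 23.2 CPM in the restricted ones. Adequate libraries had 37.5, 42.2 and 41.2 CPM, and the 6 supplemented libraries ran from 23.0 to 30.6 CPM with a median of 25.6 CPM. Each adequate library lay above each of the other 12, and the deficient, restricted and supplemented libraries overlapped. Across the tested genes, 166 (1.04%) had all 3 adequate libraries above the other 12; Pccb was the only one of the 8 genes among them. Means were 24.0 ± 2.12 CPM (deficient), 22.5 ± 1.37 CPM (restricted), 40.3 ± 2.50 CPM (adequate) and 26.7 ± 3.20 CPM (supplemented; SD, n = 3, 3, 3 and 6). The mean was thus highest at the adequate diet and lower both under and over it, with no steady order from 0% to 300% methionine.

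In the fit, Pccb was 0.595-fold in deficient against adequate metastases (log2 fold change -0.75 ± 0.16 SE, unadjusted p = 0.000247, edgeR adjusted p = 0.149). Restricted against adequate gave 0.558-fold (-0.84 ± 0.16, edgeR adjusted p = 0.160), and supplemented against adequate 0.662-fold (-0.60 ± 0.13, edgeR adjusted p = 0.248). These 3 differences rest on the same 3 adequate libraries. Deficient against restricted libraries differed by 0.09 ± 0.16 and deficient against supplemented ones by -0.15 ± 0.14 on the log2 scale (SE; edgeR adjusted p = 0.958 and 0.922). The choice of test decides the call: DESeq2 gave Pccb adjusted p-values of 0.00425, 0.000697 and 0.0139 for deficient, restricted and supplemented against adequate, where it called 0.987%, 0.275% and 0.206% of all genes as lower. Without the 3 libraries that stood apart, edgeR gave the restricted against adequate difference as -0.91 with an adjusted p of 0.0364, in a fit that called 0.135% of all genes as lower. On counts simulated with known changes in the deficient libraries, edgeR recovered 20% of 2-fold and 55% of 4-fold changes against adequate. It called 4 unchanged genes. DESeq2 recovered 36% and 71% and called 28 unchanged genes. The simulation gave each unchanged gene the same mean CPM in all libraries, so no library stood apart in it.

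The scaling also matters for Pccb, because adequate replicate 1 had the low TMM factor (the plot of Pccb on both scales). On library totals with no scaling factor it held 25.9 CPM, inside the range of 20.7 to 31.8 CPM of the other diets, while adequate replicates 2 and 3 held 44.7 and 40.9 CPM. Fold changes on library totals were -0.63, -0.72 and -0.41 on the log2 scale for deficient, restricted and supplemented against adequate, and edgeR's adjusted p-values were 0.203, 0.283 and 0.433. Leaving out adequate replicate 1 gave -0.81, -0.91 and -0.66, with edgeR adjusted p-values of 0.135, 0.0908 and 0.279; adequate replicates 2 and 3 then averaged 41.7 ± 0.69 CPM. Over 120 alternative values of its 5 fold changes, 0 turned the sign.

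Liver transcripts were also highest in the adequate libraries. The 7 hepatocyte markers, among them albumin (Alb), summed to 0.742 to 2.51 CPM in deficient, 2.34 to 4.53 CPM in restricted, 8.32 to 42.6 CPM in adequate and 0 to 2.89 CPM in supplemented libraries. All 7 were above 0 in each adequate library, and Alb had 0 counts in all 3 deficient libraries, 28, 0 and 4 in the restricted, 364, 259 and 87 in the adequate and at most 5 in the supplemented ones. Adequate replicate 1 had the most hepatocyte RNA and the least Pccb of the 3. Stromal markers stood lower there. The 7 endothelial markers, such as Pecam1 and Cdh5, summed to 141 to 1150 CPM in deficient, 145 to 208 CPM in restricted, 82.6 to 114 CPM in adequate and 73.6 to 320 CPM in supplemented libraries. The 5 fibroblast markers summed to 627 to 729 CPM in deficient, 380 to 855 CPM in restricted, 261 to 398 CPM in adequate and 307 to 1239 CPM in supplemented libraries. For both lists the adequate libraries lay below the deficient ones and overlapped with the supplemented ones; they lay below the restricted ones for the endothelial list and overlapped with them for the fibroblast list. Erythroid markers, 5 genes, summed to 339 to 4410 CPM in deficient, 186 to 468 CPM in restricted, 791 to 1166 CPM in adequate and 256 to 1381 CPM in supplemented libraries, so that adequate libraries lay above the restricted ones. The 5 macrophage markers ran from 51.4 to 102 CPM in adequate and from 85.7 to 222 CPM in the other 12 libraries, and the 6 cardiac markers reached at most 33.7 CPM in any library. The part of these transcripts in the Pccb result was not tested.

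**Figure D2:**
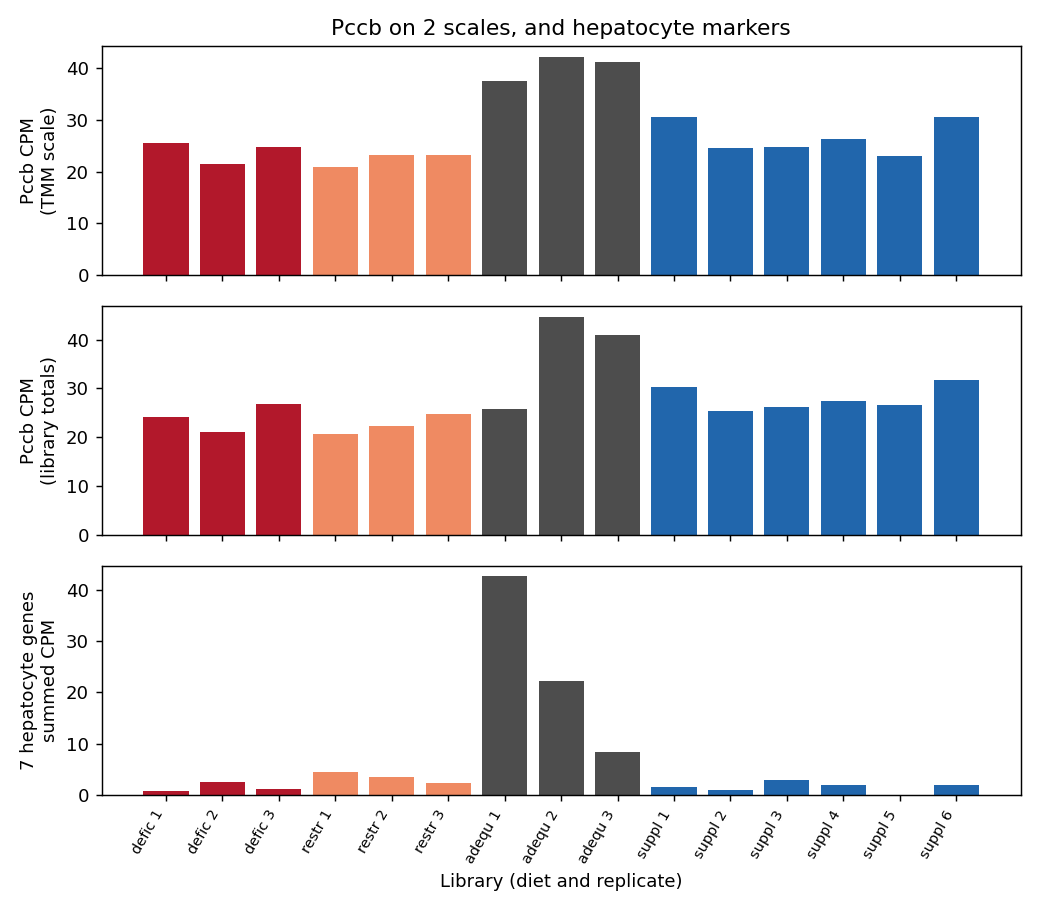
Pccb in each library in CPM on the TMM scale (top) and in CPM of library totals (middle), and the summed CPM of 7 hepatocyte markers (bottom); bars are single libraries, coloured by diet in order of rising methionine. Adequate replicate 1 is at 37.5 CPM of Pccb on the TMM scale and at 25.9 CPM on library totals, and the 3 adequate libraries hold the 3 highest hepatocyte sums, 42.6, 22.2 and 8.32 CPM.

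Pcca (ENSMUSG00000041650, chromosome 14) encodes the alpha subunit, which carries the biotin. Deficient libraries had 5.30, 7.47 and 5.54 CPM and restricted ones 7.63, 6.05 and 10.3 CPM. Adequate libraries held 14.1, 4.16 and 7.50 CPM, and supplemented ones ran from 6.76 to 11.5 CPM around a median of 9.10 CPM. Adequate libraries therefore held both the highest and the lowest Pcca of the 15, and all 4 diets overlapped. The fit gave log2 fold changes of -0.49 ± 0.37 (deficient), -0.10 ± 0.37 (restricted) and 0.12 ± 0.32 (supplemented) against adequate (SE; edgeR adjusted p = 0.550, 0.964 and 0.928). Without adequate replicate 1 these became 0.06, 0.44 and 0.67, so that library set the sign of 2 of the 3. In deficient against supplemented libraries Pcca had a log2 fold change of -0.61 ± 0.33 (unadjusted p = 0.0839, edgeR adjusted p = 0.870), the smallest unadjusted p of any gene of the list other than Pccb. No relation was detectable between the carboxylase subunits: over the 15 libraries log2 CPM of Pcca and Pccb had Pearson's r = 0.000448 (permutation p = 0.999, adjusted 0.999 over 12 relations) and Spearman's rho = 0.07 (permutation p = 0.804), and r was 0.18 without the 2 libraries farthest from the Pcca median. Pcca overlaps 4 other annotated genes in RefSeq, among them a pair of pseudogenes, and reads could be shared with them.

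Mcee (ENSMUSG00000033429, chromosome 7) encodes methylmalonyl-CoA epimerase. Deficient libraries had 5.61, 3.46 and 7.70 CPM, restricted 5.09, 3.28 and 5.49 CPM and adequate 8.88, 3.51 and 4.05 CPM. Supplemented libraries ran from 4.10 to 8.06 CPM with a median of 5.03 CPM. Adequate replicate 1 was the highest of the 15, and the other 2 adequate libraries were among the lowest, so the diets overlapped throughout. Log2 fold changes against adequate were 0.03 ± 0.42 (deficient), -0.24 ± 0.42 (restricted) and 0.0056 ± 0.36 (supplemented; SE). Without adequate replicate 1 they were 0.55 ± 0.41, 0.27 ± 0.41 and 0.52 ± 0.38, so that library set the sign in restricted libraries.

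Mut (ENSMUSG00000023921, chromosome 17; Mmut in RefSeq) encodes the mutase itself. It was 28.9, 33.5 and 27.8 CPM in deficient, 25.0, 25.2 and 31.3 CPM in restricted and 30.0, 26.5 and 26.6 CPM in adequate libraries. Supplemented libraries ran from 26.2 to 36.1 CPM with a median of 29.05 CPM. Mut had the narrowest spread of the 8 genes, with a coefficient of variation of 10.9% over the 15 libraries. Its log2 fold changes against adequate were 0.12 ± 0.16 (deficient), -0.03 ± 0.16 (restricted) and 0.13 ± 0.14 (supplemented; SE), with edgeR adjusted p-values of 0.763, 0.980 and 0.807.

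Mmaa (ENSMUSG00000037022, chromosome 8) encodes the GTPase that guards loading of adenosylcobalamin onto the mutase. It was the scarcest, with 20 to 122 counts per library. Deficient libraries had 2.79, 2.01 and 2.97 CPM, restricted 2.60, 2.62 and 3.39 CPM and adequate 7.69, 1.20 and 0.909 CPM. Supplemented libraries ran from 1.54 to 4.50 CPM with a median of 2.95 CPM. Adequate libraries again held both extremes: replicate 1 was the highest of the 15 and replicates 2 and 3 the lowest. With all libraries the log2 fold changes against adequate were -0.33 ± 0.67 (deficient), -0.18 ± 0.67 (restricted) and -0.16 ± 0.58 (supplemented; SE). Without adequate replicate 1 all 3 turned positive, at 1.28 ± 0.54, 1.42 ± 0.55 and 1.44 ± 0.51, with unadjusted p-values of 0.0343, 0.0213 and 0.0136 and edgeR adjusted p-values of 0.364, 0.445 and 0.476. Direction at Mmaa thus depended on 1 library. Mut and Mmaa showed r = 0.05 over the 15 libraries (permutation p = 0.870, adjusted 0.950; rho = -0.03, permutation p = 0.932), and r was 0.17 without the 2 farthest libraries.

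Mmab (ENSMUSG00000029575, chromosome 5) encodes the adenosyltransferase that makes adenosylcobalamin. Deficient libraries had 20.1, 22.3 and 15.1 CPM, restricted 20.01, 22.9 and 13.9 CPM and adequate 16.7, 20.5 and 22.4 CPM. Supplemented libraries ran from 14.3 to 24.0 CPM with a median of 18.3 CPM. No diet lay apart, and the log2 fold changes against adequate were -0.05 ± 0.25 (deficient), -0.07 ± 0.25 (restricted) and -0.04 ± 0.21 (supplemented; SE), all smaller than their errors. Against the mean log2 CPM of the 14 alveolar markers, Mmab had r = -0.59 (permutation p = 0.0176, adjusted 0.211) and rho = -0.53 (permutation p = 0.0471, adjusted 0.283). The relation did not pass the adjustment, and r was -0.42 without the 2 libraries farthest from the marker median, -0.65 after diet means were subtracted and -0.20 on the deposited TPM.

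Mvk (ENSMUSG00000041939), the neighbour with which Mmab shares its promoter stretch, encodes a kinase of cholesterol synthesis, and the pair is known to be driven together by the sterol factor SREBP-2. Mvk was 28.2, 22.2 and 19.3 CPM in deficient, 33.7, 37.1 and 22.4 CPM in restricted and 32.3, 18.8 and 35.6 CPM in adequate libraries; supplemented libraries ran from 21.4 to 41.5 CPM with a median of 25.8 CPM. In both the deficient and the restricted diet, replicate 3 had the least of Mvk and of Mmab. Over the 15 libraries log2 CPM of Mvk and Mmab had r = 0.44 (permutation p = 0.103, adjusted 0.410) and rho = 0.36 (permutation p = 0.184), with r = 0.43 without the 2 farthest libraries and 0.48 after diet means were subtracted. On the deposited TPM, log2(TPM + 0.1), r was 0.78 (permutation p = 0.00209, adjusted 0.0251). So the unit decides this call; deposited TPM scales each library by all its transcripts, short structural RNAs included, and the part of that scaling was not tested.

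Mmachc (ENSMUSG00000028690, chromosome 4) encodes the cytosolic protein that strips the upper ligand from incoming cobalamin, a step ahead of both B12 enzymes. Deficient libraries had 13.7, 16.8 and 10.2 CPM, restricted 12.5, 10.7 and 13.1 CPM and adequate 14.7, 10.9 and 8.46 CPM. Supplemented libraries ran from 9.24 to 12.9 CPM with a median of 10.7 CPM. Deficient replicate 2 was the highest and adequate replicate 3 the lowest, and the diets overlapped. Log2 fold changes against adequate were 0.26 ± 0.25 (deficient), 0.10 ± 0.25 (restricted) and -0.06 ± 0.22 (supplemented; SE), with edgeR adjusted p-values of 0.643, 0.952 and 0.946; without adequate replicate 1 they were 0.48, 0.30 and 0.15. Its neighbour Prdx1, a peroxiredoxin gene, had r = 0.28 with Mmachc (permutation p = 0.305, adjusted 0.914; rho = 0.17, permutation p = 0.541), and r was -0.0064 without the 2 libraries farthest from the Prdx1 median, so the relation rested on those. The gene Ccdc163 overlaps Mmachc in RefSeq, and reads could be shared.

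Mmadhc (ENSMUSG00000026766, chromosome 2) encodes the protein that routes cobalamin to the mitochondrion or to methionine synthase. By CPM it was the highest of the 8 in 11 of 15 libraries, at 36.7, 40.4 and 24.2 CPM in deficient, 35.3, 34.05 and 37.2 CPM in restricted and 52.8, 32.0 and 35.8 CPM in adequate libraries. Supplemented libraries ran from 31.9 to 41.4 CPM with a median of 36.7 CPM. The highest value was adequate replicate 1 and the lowest deficient replicate 3, both libraries that stood apart. Log2 fold changes against adequate were -0.25 ± 0.21 (deficient), -0.18 ± 0.21 (restricted) and -0.13 ± 0.18 (supplemented; SE); without adequate replicate 1 they were -0.013, 0.050 and 0.11, and without the 3 libraries that stood apart deficient against adequate was 0.18 ± 0.16. Against the alveolar markers the relation was also negative and did not pass (r = -0.46, permutation p = 0.0941, adjusted 0.410; rho = -0.58, permutation p = 0.0275, adjusted 0.283), and r was -0.69 without the 2 libraries farthest from the marker median and -0.34 on the deposited TPM.

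**Figure D3:**
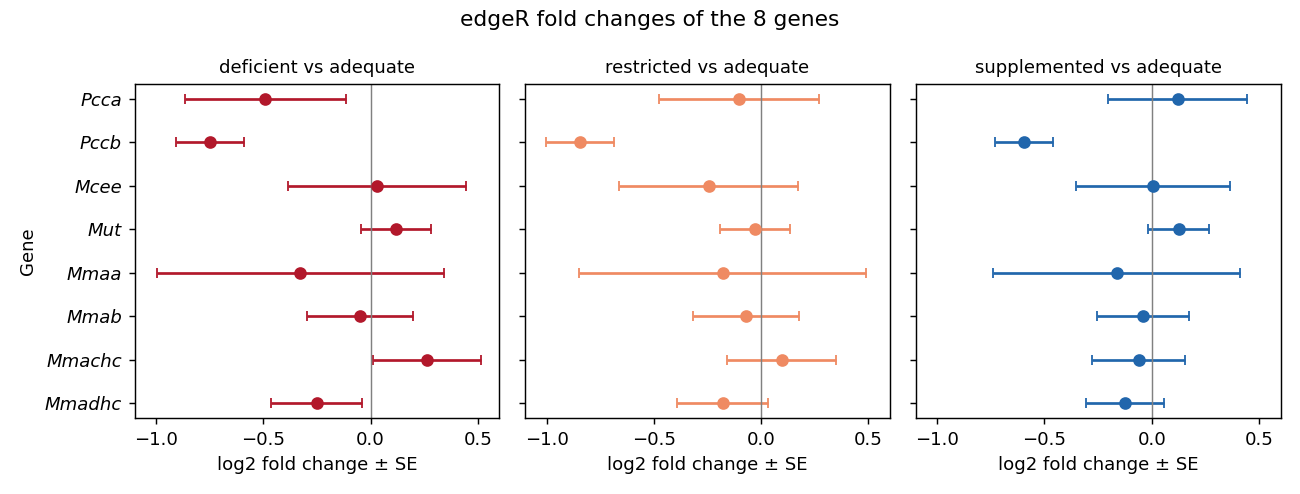
Log2 fold changes from edgeR (points, x axis) for the 8 genes in deficient, restricted and supplemented metastases, each against the 3 adequate libraries. Bars are standard errors derived from the fold change and edgeR's F statistic. Pccb lies at -0.75, -0.84 and -0.60, and the bars of Mmaa, ± 0.67, ± 0.67 and ± 0.58, are the widest.

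Over the 8 genes, log2 fold changes against adequate were below 0 for 5 in deficient, 7 in restricted and 5 in supplemented libraries. Medians over the 8 were -0.15, -0.14 and -0.052, where medians over all tested genes were 0.036, 0.0046 and 0.028. Without adequate replicate 1 the genes below 0 numbered 3, 2 and 2, and the medians over the 8 were 0.11, 0.16 and 0.16, where those over all genes were 0.054, -0.0042 and 0.026. The sign of these medians thus rested on that library, which was the highest of the 15 libraries for 4 of the 8 genes on the TMM scale (Pcca, Mcee, Mmaa and Mmadhc), and for 1 of 8 (Mmaa) on library totals. Co-variation among the 8 was loose. Of the 28 pairs, 18 had r above 0 over the 15 libraries, with a median of 0.08, a lowest value of -0.36 for Pcca with Mmab and a highest of 0.68 for Mcee with Mmaa. Those values are a description over libraries that share tumour content, lung content and scaling.

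Levels between genes were compared per length, as CPM per kilobase of effective length. Mmadhc came first at 34.9 ± 5.60 (SD over the 15 libraries), above Pccb in all 15. Pccb followed at 16.3 ± 5.30, Mut at 11.2 ± 1.26, Mmab at 9.89 ± 1.69, Mcee at 7.69 ± 2.46, Mmachc at 5.95 ± 1.13, Pcca at 5.74 ± 2.47 and Mmaa at 1.07 ± 0.60 CPM per kilobase. Pcca exceeded Mmaa in all 15 libraries. The steps in between were smaller than the spread: Pccb exceeded Mut in 11 of 15 libraries, Mut exceeded Mmab in 9, Mmab exceeded Mcee in 10, Mcee exceeded Mmachc in 12 and Mmachc exceeded Pcca in 10. The beta subunit gene Pccb exceeded the alpha subunit gene Pcca in 14 of 15 libraries. Effective length as deposited depends on which transcripts RSEM assigned reads to, and for Pcca it varied 3.84-fold between libraries (641 to 2462 bases), against 1.52-fold for Pccb and 1.50-fold for Mmab, so the place of Pcca is the least certain.

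**Figure D4:**
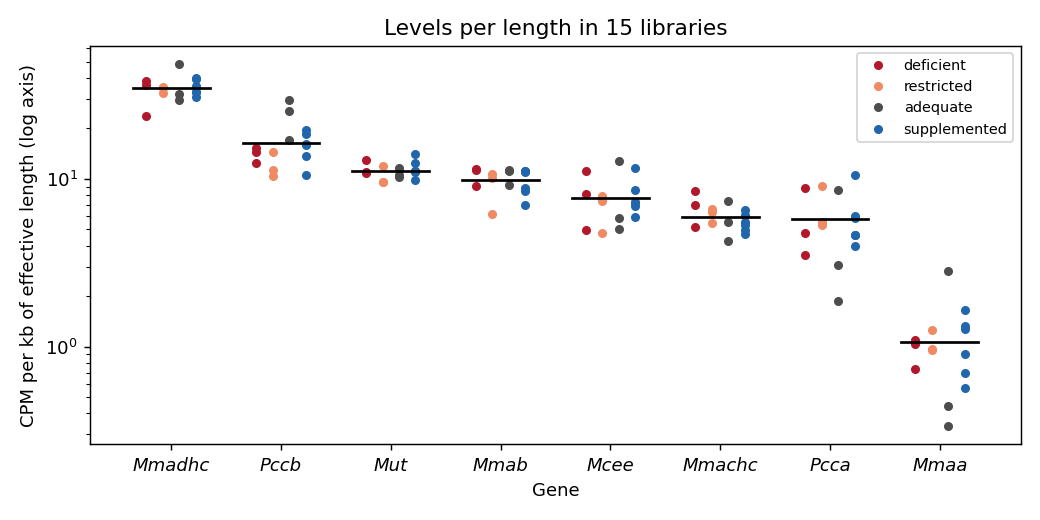
Levels of the 8 genes in CPM per kilobase of effective length (y axis, log scale), ordered by mean over 15 libraries (horizontal lines); points are single libraries, offset by diet. Within each of the 15 libraries Mmadhc (mean 34.9) exceeds Pccb and Pcca exceeds Mmaa (mean 1.07), while the order of the 6 genes between varies.

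The genes whose pattern was most like the mean z-scored log2 CPM of the 8, over 15 libraries and among 11857 symbol-bearing genes whose log2 CPM averaged 1 or more, were Polr2g (r = 0.90), Hspe1 (0.86), Vps35 (0.86), Ndufb6 (0.86) and Cops9 (0.85). Without adequate replicate 1, r for the same genes was 0.75, 0.69, 0.71, 0.64 and 0.62. That library also had the highest mean z-score of the 8 genes, 1.29, where the other 14 lay between -0.58 and 0.44.

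Around the pathway, 79 genes in 10 lists chosen with earlier results known were read in the same fit, and 0 passed edgeR's adjusted p of 0.05 in any contrast (the heat map of the genes around the pathway). Among the sources of propionyl-CoA, the 16 genes of branched-chain amino acid breakdown were counted at an unadjusted p under 0.05 against adequate. They had 3 lower and 0 higher in deficient, 4 lower and 1 higher in restricted, and 3 lower and 0 higher in supplemented libraries. Over all genes 5.84%, 4.31% and 4.92% were lower and 9.29%, 4.87% and 4.85% higher. Without the 3 libraries that stood apart the list had 0 lower and 2 higher in deficient and 3 lower and 1 higher in restricted libraries. Supplemented libraries then had 4 lower and 0 higher. In that fit 2073, 2529 and 2443 of 16342 genes had such a p in either direction. Bckdha, a subunit of the branched-chain ketoacid dehydrogenase, was 43.4, 40.7 and 44.1 CPM in deficient, 31.6, 26.8 and 30.7 CPM in restricted and 43.8, 56.9 and 40.4 CPM in adequate libraries, and ran from 27.5 to 36.3 CPM in supplemented ones. Both restricted and supplemented libraries lay below all adequate ones, and deficient ones overlapped with adequate. The share of all genes with such a separation is not given here. On library totals adequate replicate 1 held 30.3 CPM, inside the restricted range of 25.7 to 32.7 and the supplemented range of 28.3 to 41.1. The separation thus depended on the scaling of that library. The log2 fold change of Bckdha was -0.66 ± 0.17 in restricted against adequate (unadjusted p = 0.00119, edgeR adjusted p = 0.263). DESeq2 called it (-0.67, adjusted p = 0.0350), where 0.275% of all genes were called lower.

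Of the 5 listed genes of methionine and threonine breakdown, 3 were tested. Cbs, which commits homocysteine to breakdown, had 24, 11 and 51 counts in deficient libraries, 0, 4 and 3 in restricted, 4, 2 and 7 in adequate and 1 to 12 in supplemented ones. All deficient libraries lay above all adequate ones, and the highest was the lung-rich deficient replicate 3. For this separation no share over all genes is given here. The log2 fold change of deficient against adequate was 2.81 ± 1.14 (unadjusted p = 0.0258, edgeR adjusted p = 0.268), at counts too few for a firm size. Cth, the next enzyme, was at -0.34 ± 0.55 in deficient and -1.24 ± 0.56 in restricted against adequate.

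Beside the pathway, Clybl encodes the citramalyl-CoA lyase, whose loss in humans lowers circulating B12. It stood at 6.85, 7.37 and 6.55 CPM in deficient libraries and at 12.6, 10.9 and 12.9 CPM in restricted ones. Adequate libraries had 22.5, 11.6 and 13.4 CPM, and supplemented ones ran from 9.65 to 14.9 CPM with a median of 11.7 CPM. All 3 deficient libraries lay below the other 12, and the share of all genes that did so was not counted. On library totals adequate replicate 1 held 15.5 CPM, beside 12.3 and 13.3 CPM in replicates 2 and 3. Deficient libraries then held 6.47, 7.23 and 7.07 CPM. The log2 fold change of deficient against adequate was -1.19 ± 0.26 (unadjusted p = 0.000356, edgeR adjusted p = 0.149). DESeq2 called it at -1.16 with an adjusted p of 0.00607, where 0.987% of all genes were called lower. Of the 8 genes of propionate activation and side reactions, Clybl was the only one at an unadjusted p under 0.05 in that contrast. Over all genes 5.84% were lower and 9.29% higher at such a p.

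Downstream, all 3 subunit genes of succinyl-CoA ligase, which spends the succinyl-CoA made, were below 0 against adequate. This held in deficient, restricted and supplemented libraries, 3 contrasts that rest on the same 3 adequate libraries. In that order Sucla2 was at -0.52 ± 0.19, -0.36 ± 0.19 and -0.27 ± 0.16. Suclg2 was at -0.31 ± 0.28, -0.19 ± 0.28 and -0.27 ± 0.24 (SE). Suclg1 was 52.0, 53.2 and 51.2 CPM in deficient, 59.0, 63.6 and 64.5 CPM in restricted and 105, 69.5 and 87.5 CPM in adequate libraries, and supplemented ones ran from 52.9 to 97.9 CPM. Deficient and restricted libraries lay below all adequate ones, and supplemented ones overlapped. How often all genes separated in this way is not given here. The log2 fold change of Suclg1 in deficient against adequate was -0.74 ± 0.20 (unadjusted p = 0.00227, edgeR adjusted p = 0.157). DESeq2 called it at an adjusted p of 0.0358, where 0.987% of all genes were called lower. In the tricarboxylic acid cycle, 5 of 14 genes were lower and 0 higher at an unadjusted p under 0.05 in deficient against adequate libraries, where 5.84% of all genes were lower and 9.29% higher; the median of the 14 was -0.31. The count was 0 lower without adequate replicate 1 and 1 lower without deficient replicate 3, so it rested on single libraries. In restricted against adequate libraries 0 of the 14 were lower and 0 higher (median -0.058), and in supplemented against adequate ones 1 was lower and 1 higher, beside 4.92% and 4.85% of all genes.

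Vitamin B12 supply and use gave smaller numbers. Of the 8 uptake and transport genes, 1 was higher in deficient against adequate libraries at an unadjusted p under 0.05, beside 9.29% of all genes: Lrp2, the megalin receptor (2.08 ± 0.92), which had 91.2 CPM in deficient replicate 3 and 12.1 and 9.33 CPM in the other 2, against 6.50 to 11.4 CPM in adequate libraries. The list had 1 higher in restricted libraries, beside 4.87% of all genes: Tcn2, the transcobalamin carrier (0.49 ± 0.23). Mtr, methionine synthase, the other B12 enzyme, was at 0.67 ± 0.26 in deficient against adequate (unadjusted p = 0.0201, edgeR adjusted p = 0.250), and its reductase partner Mtrr at 0.27 ± 0.23. Of the 3 regulators of Mmachc, Zfp143, the mouse counterpart of ZNF143, was at 0.63 ± 0.23 in restricted against adequate (unadjusted p = 0.0134, edgeR adjusted p = 0.433), while Hcfc1 and Thap11 reached at most 0.28 and 0.06 in deficient, restricted and supplemented libraries. The 6 measured genes of the other biotin carboxylases and of biotin supply had 1 lower, Btd (-0.45 ± 0.20), and 0 higher in deficient against adequate libraries, beside 5.84% and 9.29% of all genes.

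Cholesterol synthesis was listed because of Mvk. In that list 10 of 15 genes were lower and 0 higher at an unadjusted p under 0.05 in deficient against restricted libraries, where 2.28% of all genes were lower. Their median log2 fold change was -0.75, against 0.016 over all genes. Without deficient replicate 3 the list had 5 lower and a median of -0.54. In restricted against adequate libraries 7 of the 15 were higher and 0 lower, with a median of 0.53, where 4.87% of all genes were higher; without adequate replicate 1 the count was 3. In deficient against adequate libraries 1 was lower and 0 higher (median -0.23). Cell type markers were read in deficient against restricted libraries too, at an unadjusted p under 0.05. Higher were 5 of 6 alveolar type 1 genes (median 3.15), 5 of 5 erythroid genes (median 2.50) and 4 of 7 endothelial genes (median 1.45). The same held for 3 of 8 alveolar type 2, 1 of 5 macrophage and 0 of 5 fibroblast genes, where 5.16% of all genes were higher. All 8 melanocyte markers were below 0 (median -0.35). Without deficient replicate 3, 0 genes of each of these lists were higher at such a p. Medians were then 0.81 (alveolar type 1), 0.14 (erythroid) and -0.05 (endothelial), so those counts rested on that library. Of the melanocyte markers 7 were then below 0 (median -0.16). The part of these markers in the values of the cholesterol list was not tested. With all libraries, Fdft1, squalene synthase, was at -0.97 ± 0.25 and Sqle, squalene epoxidase, at -0.85 ± 0.25 in deficient against restricted. Mvk itself was at -0.42 ± 0.30, while Mmab was at 0.02 ± 0.25 in the same contrast.

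**Figure D5:**
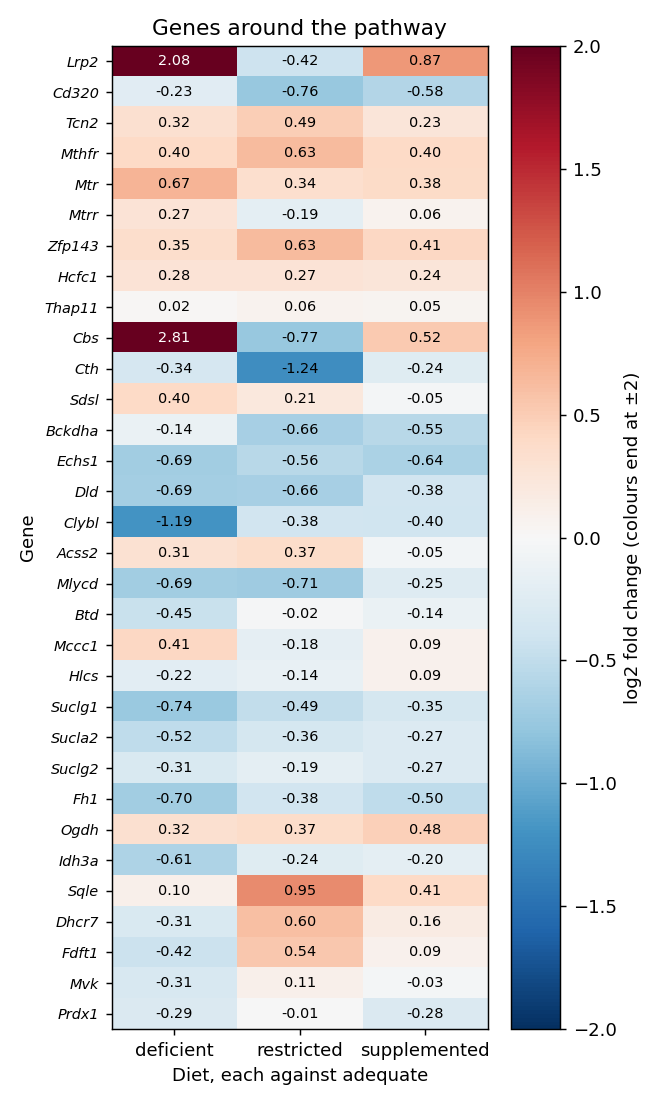
Heat map of edgeR log2 fold changes (numbers in cells; colours end at ± 2) of named genes around the pathway, one per row, in deficient, restricted and supplemented metastases against adequate ones (columns). Clybl is lowest in the deficient column among genes of the side reactions, at -1.19, and Sqle is at 0.95 in the restricted column.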

How the data were processed

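Each of the 15 libraries came with a gene table that the authors deposited, holding expected counts (RSEM's estimated read numbers), TPM and effective lengths per Ensembl gene ID. Per the labels' protocols, ribosomal RNA was removed from total RNA and stranded libraries were made. Build NCBIM37 and the programs Bowtie2 2.2.9, RSEM 1.30 and edgeR are listed with no order, per the submitters' processing notes. Not given in the sources used here: the strand setting and the annotation release.

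Expected counts were rounded and filtered with filterByExpr (16001 of 37620 IDs kept; 32897 IDs had a symbol), scaled by TMM and tested in edgeR 4.0.16 under R 4.3.3. A single quasi-likelihood fit took all 15 libraries with a mean per diet (11 residual degrees of freedom, biological coefficient of variation 0.461, Benjamini-Hochberg threshold 0.05 over all genes). The standard error (SE) of an edgeR fold change was derived as the absolute log2 fold change divided by the square root of its F statistic. Alternatives were DESeq2 1.42.0 and voom in limma 3.58.1. CPM are on the TMM scale, and a prior count of 2 was added before taking log2 CPM. Replicates were numbered in order of deposit. Within a diet, no 2 libraries agreed within counting noise (24 pairs, chi-square per degree of freedom 33.4 to 415). Fits were tested on simulated counts. Relations used two-sided permutation tests with 100000 resamples in Python 3.11.15 with scipy 1.17.1, adjusted over 12 relations.

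The 8 genes and the other lists were chosen with earlier results of these data known. Named genes are the 8, up to 3 per list with the smallest p in the test of any diet difference, and Mvk, Prdx1, Mtr, Mtrr, Cbs and Cth. Pc and Hmgcs1 matched no ID by symbol and were not analysed here. Lists of endothelial, macrophage, fibroblast, cardiac and erythroid markers were read with the alveolar, muscle, hepatocyte and melanocyte ones.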

Additional observations from a re-analysis of the deposited data

How the results depend on the processing

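No paired analysis was possible because the labels give no number, mouse or batch that links libraries of different diets. Of the 8 genes edgeR called 0 in all 6 tests, and it also called 0 in each of the 15 fits that left out 1 library. DESeq2 called 1, Pccb, for any difference among the diets and for deficient, restricted and supplemented against adequate, and 0 in the other 2 contrasts; the cause was not tested. Without the 3 libraries that stood apart, edgeR called 1, Pccb, in restricted against adequate, where it called 0.135% of all genes as lower. With 1 library left out, Pccb kept log2 fold changes of -0.84 to -0.68 in deficient, -0.91 to -0.79 in restricted and -0.66 to -0.56 in supplemented against adequate, with edgeR adjusted p-values of 0.0908 to 0.536 across the 3. Fits with library totals and with effective lengths as an offset, and counts over lists without single libraries, were chosen after seeing the data; Pccb in restricted against adequate was -0.72 on library totals and -1.02 with the offset. Of 960 alternative fold changes of the 8 genes, 102 changed sign, 25 of them at Mcee, 23 at Mmab and 0 at Pccb. Of the 12 relations across libraries 0 passed adjustment, also without the farthest 2 libraries and after diet means were subtracted, and 1 did on deposited TPM (Mvk with Mmab). The order of levels was the same by mean and by median. Counting error is largest at Mmaa, with as few as 20 counts.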
